A study of Mus musculus with 12 samples.

Results

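Interferon response genes were examined in salivary tumors of MMTV-ras mice, which carry a ras oncogene driven by the mouse mammary tumor virus promoter in mammary and salivary epithelium. The list held 39 genes, chosen by name and grouped by role, and 33 of them were measured by 45 of the 22626 tested probe sets of the array. A probe set is a group of short probes read together, and a probe set counted as a member only where the annotation gave it a single symbol from the list. Isg15, Ddx58, Xaf1, Ifi27, Ifi44 and Oas1g had no such probe set. The tumors were of 3 genotypes, with 4 tumors each: MMTV-ras/p53+/+ (WT), MMTV-ras/p53-/- (KO) and MMTV-ras/p53R172H/R172H (MT), the last making p53 with a single amino acid exchange in place of the normal protein. All 12 tumors thus carried the ras transgene. No treatment is named for them, though a subset of the study's tumor-bearing mice received doxorubicin. Neither the age of each sampled animal nor whether every tumor had its own mouse is given in the sources used here. In the study the age at which salivary tumors appeared differed between the genotypes, latest in WT and earliest in KO, so that age and genotype cannot be told apart. The p-values therefore reflect only how far these tumors varied among themselves. WT and KO mice were kept on a BALB/c and C57BL/6 mixed (CB6) background, and the R172H allele was bred in from C57BL/6, so that the MT genotype and its share of either strain cannot be told apart. Each tumor was measured as bulk RNA from frozen sections on 1 Affymetrix GeneChip mouse array, and all levels are log2 values, on which a difference of 1 is a doubling. The transcript of p53 itself was not analysed here.

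Interferons are signaling proteins released by cells that sense viral or misplaced nucleic acid, and by T and NK cells in the case of interferon gamma. Type I interferons act through a receptor and its JAK kinases on a complex that holds Stat2 and Irf9 and binds the interferon-stimulated response element, while interferon gamma acts mainly through the gamma-activated site. The genes so induced include sensors that detect more nucleic acid, effectors that block viral RNA and proteins, GTPases that attack intracellular pathogens, and chemokines that draw in lymphocytes. Tumor epithelium and the immune and stromal cells around it can all respond.

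The upstream sequences of several members are shown to describe the list, and their part in the levels was not tested. RefSeq promoter windows (GRCm38.p6, 250 bases before to 50 after the start) were matched for 31 of the 39 members. The core of the response element was searched as GAAA, any 2 bases, GAAA, on both strands, and was present in the windows of 17 of these 31 genes (54.8%), against 3.99% of all genes with a window and 3.44% of all windows. The gamma-activated site was searched as TTCNNNGAA, which reads alike on both strands, and was present for 9 of the 31 genes (29%), against 9.55% of all genes and 8.3% of all windows. Matches of one kind can overlap each other or the other kind, and those of Gbp3 overlapped. In the stretches here, 5′ to 3′ in the sense of the gene, capitals mark the core of the response element, and for Irf1 the gamma-activated site. The Igtp stretch also holds a gamma-activated site, just before its marked core, which is left in lower case. The list was known to be interferon-induced when it was drawn up, so the share of matches describes the list, and the absence of a match says only that these letters are not in the window.
Ifit1: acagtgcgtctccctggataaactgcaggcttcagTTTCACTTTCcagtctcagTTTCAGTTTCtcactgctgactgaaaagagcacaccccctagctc
Ifit3: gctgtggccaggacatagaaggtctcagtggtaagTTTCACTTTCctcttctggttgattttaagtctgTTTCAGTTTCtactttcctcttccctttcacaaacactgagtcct
Rsad2: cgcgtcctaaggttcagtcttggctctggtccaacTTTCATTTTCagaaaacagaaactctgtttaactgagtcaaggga
Gbp2: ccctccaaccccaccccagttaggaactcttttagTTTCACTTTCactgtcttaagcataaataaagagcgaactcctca
Gbp3: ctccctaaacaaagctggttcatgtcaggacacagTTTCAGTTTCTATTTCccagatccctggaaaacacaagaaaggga
Igtp: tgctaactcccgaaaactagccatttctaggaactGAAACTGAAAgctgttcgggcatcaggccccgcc
Cxcl10: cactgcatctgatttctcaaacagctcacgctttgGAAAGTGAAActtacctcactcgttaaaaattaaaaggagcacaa
Irf1: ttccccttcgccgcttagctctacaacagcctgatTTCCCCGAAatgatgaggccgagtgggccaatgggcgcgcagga
All 8 stretches lie upstream of the annotated start. The Ifit1 stretch is chr19:34640750-34640848 and the Ifit3 stretch chr19:34583338-34583451, both on the plus strand. Rsad2 is at chr12:26456528-26456607 on the minus strand. Gbp2, at chr3:142620569-142620648, and Gbp3, at chr3:142559964-142560043, lie on the plus strand of the same chromosome. Igtp is at chr11:58199487-58199555 and Irf1 at chr11:53769889-53769967, both on the plus strand, and Cxcl10 is at chr5:92349058-92349137 on the minus strand.

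Before the results, the tumors that stood apart are described. Of 8 epithelial markers, Epcam, an adhesion protein, ran from 11.79 to 13.04 over the 12 tumors and the luminal keratin Krt18 from 10.68 to 13.00, while Krt5 and Krt14, keratins of basal cells, and Krt19 ran from 5.67 to 7.82. Of 9 salivary secretory genes, Aqp5, a water channel of acini, ran from 10.67 to 13.01, while the amylase Amy1 ran from 4.59 to 13.29. WT1 carried lymphocyte markers that the others did not: the mean level of 6 B and plasma cell markers was 9.48 in WT1 and 5.34 to 6.06 in the other 3 WT tumors, and Jchain, which joins secreted antibodies, was at 12.37 in WT1 and 5.46 to 6.48 in the other 11 tumors. The mean of 15 T and NK cell markers was 6.75 in WT1 and 5.38 to 5.78 in the others, and that of 7 granulocyte markers 7.46 against 5.43 to 6.23. KO3 carried secretory genes of the gland at levels that no other tumor had, such as Crisp3 at 10.87 against 3.27 to 4.22 and Klk1b16, a kallikrein, at 10.56 against 3.85 to 4.29. The poly-A control RNAs, which are added during sample preparation, averaged 10.38 to 10.56 on the arrays of MT1, MT2 and MT3 and 3.98 to 4.23 on the other 9, MT4 included. The 18S ribosomal probe sets averaged 8.90 to 9.33 in WT1, WT2 and WT3 and 6.41 to 8.03 in the other 9 tumors. In KO4 the 3′ signal exceeded the 5′ signal by 1.05 for actin and 0.44 for Gapdh, against 0.17 to 0.58 and -0.15 to 0.12 in the others. The part of these readings in the results was not tested. The poly-A level is not labelled as a batch, but results for MT are also given with it as a block, where MT4 alone stands for the genotype among the low arrays.

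No member probe set passed an adjusted p of 0.05 in any of the 3 comparisons of limma, which was fitted over all tested probe sets with Benjamini-Hochberg adjustment. This was 0 of 45 for WT against KO, where 4.57% of all probe sets passed, 0 of 45 for MT against KO, where 0.00884% passed, and 0 of 45 for MT against WT, where 0.367% passed. At an unadjusted p under 0.05, 10 of the 45 were lower in WT than in KO (22.2%, against 10.5% of all probe sets) and 1 was higher (2.22%, against 13.5%). In MT, 9 of 45 were lower than in KO (20%, against 4.57%) and 0 were higher (5.01% of all). The lower counts rested on single tumors. Without KO2 they were 2 for WT (4.44%, against 9.32%) and 1 for MT (2.22%, against 4.88%), and without KO3 they were 24 (53.3%, against 9.0%) and 22 (48.9%, against 4.9%). Leaving out KO1 gave 6 for WT (13.3%, against 10.3%) and 1 for MT (2.22%, against 4.16%). Leaving out WT3 gave 3 for WT (6.67%, against 8.41%). For MT, leaving out MT1 gave 2 (4.44%, against 3.58%) and leaving out MT3 gave 1 (2.22%, against 3.37%). Between MT and WT, 1 was lower and 1 higher in MT, where 10.4% and 8.97% of all probe sets were. The values of WT and KO did not overlap for 2 of the 45, against 14.5% of all probe sets, those of MT and KO for 0, against 4.85%, and those of MT and WT for 1, against 10.9%.

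The mean levels leaned the same way for most genes all the same. With each gene read by its brightest probe set on average, 28 of the 33 genes were lower in WT than in KO, with a median difference of -0.60, where the median of all probe sets was 0.02. In MT 31 of 33 were lower than in KO, with a median of -0.63 beside 0.02 for all probe sets. These comparisons share the KO tumors. MT and WT were near each other, with 19 of 33 genes lower in MT and a median of -0.07 beside -0.01. Without KO2 the counts were 24 and 26 of 33 and the medians -0.30 and -0.32, while without KO3 they were 31 and 33 and the medians -0.82 and -1.01. With the poly-A level as a block, 29 of 33 genes were lower in MT than in KO with a median of -0.38, and the count against WT turned to 10 of 33 lower with a median of 0.20. Markers of other cells also differed between WT and KO. Macrophage markers were higher in WT by a median of 0.60, except Cd14 and Cd163, for which WT minus KO was -2.13 and -0.08. Of the 13 macrophage markers, 2 passed the test (Tyrobp and Cd68). So did 3 of 7 endothelial markers (Emcn, Pecam1 and Vwf, with a list median of 0.28) and Dcpp1 of the 9 salivary secretory genes. Of all probe sets 4.57% passed in this comparison. The 8 epithelial markers had a median of -0.49 and 0 passed. In MT against KO 0 markers of any list passed. The part of these cells in the differences was not tested. Because the RNA is of whole tumors, fewer responding cells and less RNA per cell cannot be told apart in any of these differences.

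**Figure D1:**
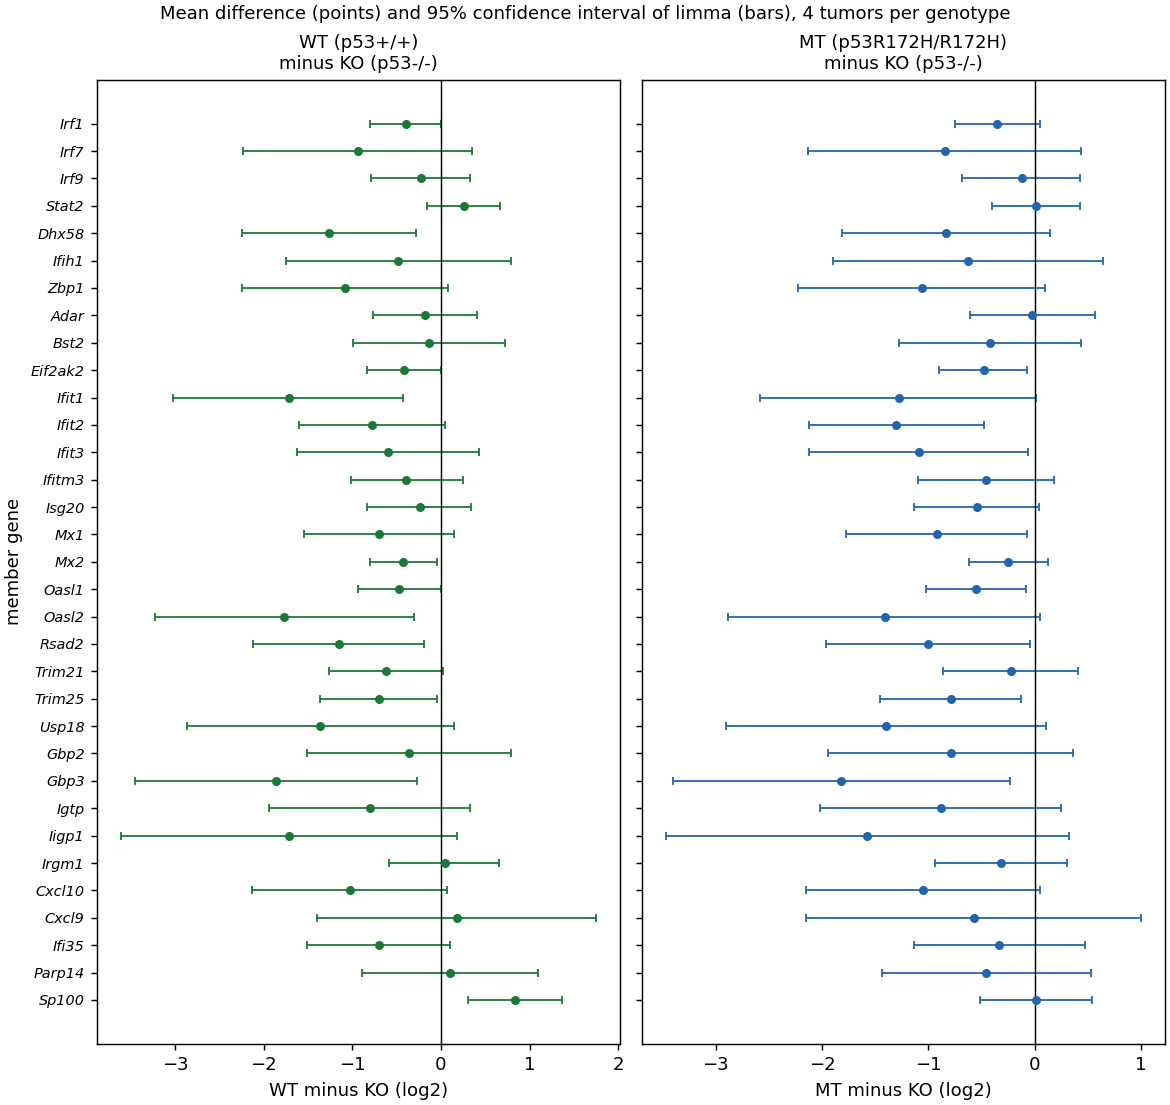
Difference of WT (left, green) and MT (right, blue) from KO for the 33 measured genes, in log2 units, as the mean difference (points) with the 95% confidence interval of limma (bars), 4 tumors per genotype. In WT 28 genes and in MT 31 genes lie left of 0, and most intervals cross 0, that of Gbp3 in WT running from -3.45 to -0.27.

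The median spread was widest within the KO genotype. The median SD of the 33 genes over the 4 KO tumors was 0.86, against 0.25 for all probe sets, and 19 of the 33 were above the 95th percentile of all probe sets, 0.75. In WT and MT the median SD of the members was 0.36 and 0.40, against 0.22 and 0.23. There 6 and 4 of the 33 were above the 95th percentile of their genotype, 0.75 and 0.72. The largest SD of a member, 1.83, was that of Cxcl9 in WT. The mean level over the 33 genes, used here as a score, was 7.72, 8.73, 6.77 and 7.38 in KO1 to KO4, 7.47, 6.84, 6.59 and 7.13 in WT1 to WT4, and 6.64, 7.30, 6.59 and 7.19 in MT1 to MT4. KO2 was the highest of the 12 tumors and KO1 the next, both above every WT and MT tumor, while KO3 lay within the range of both other genotypes. The genotype means were 7.65 ± 0.82 (SD, n = 4) for KO, 7.01 ± 0.38 for WT and 6.93 ± 0.37 for MT. Without KO2 the KO mean was 7.29, which is under the level of WT1 and of MT2.

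**Figure D2:**
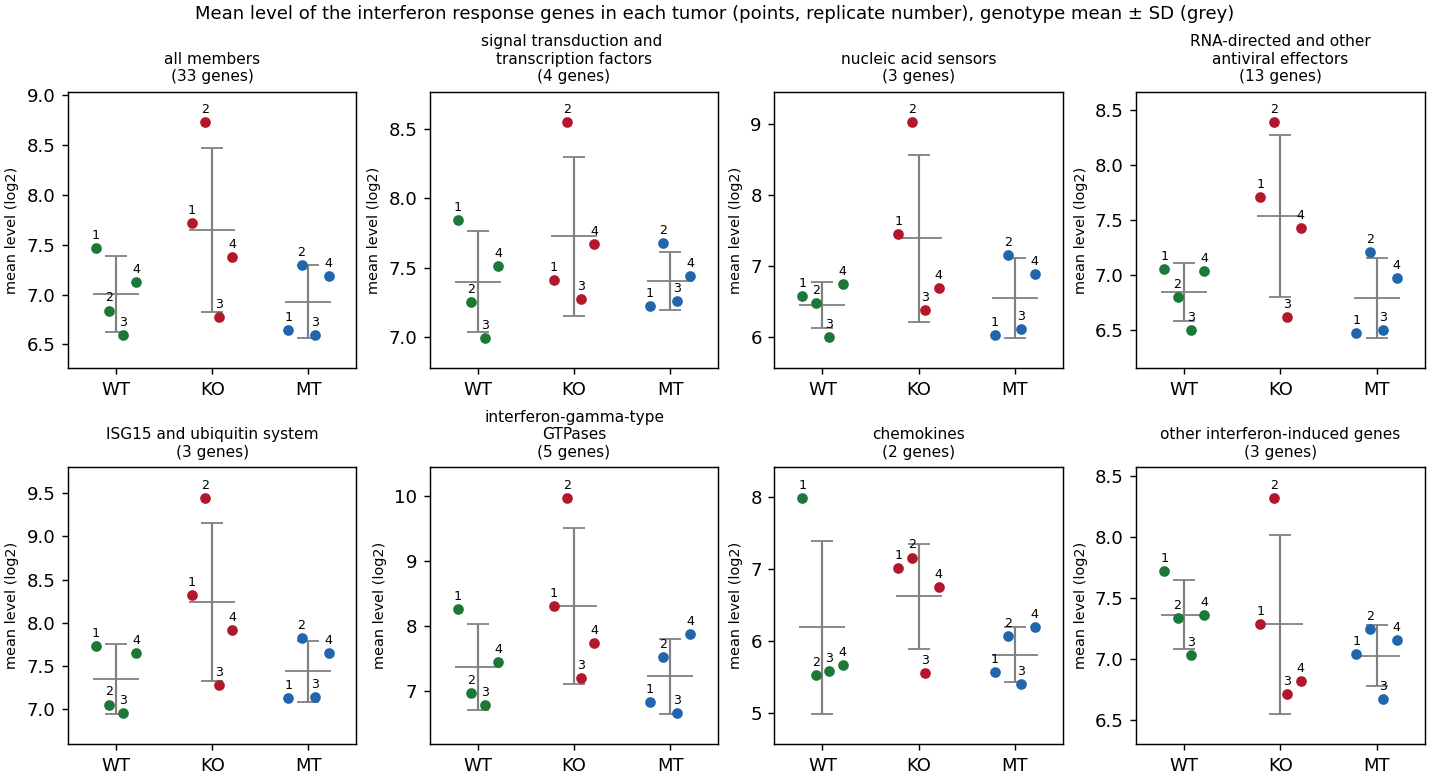
Mean log2 level of all 33 measured genes and of each of 7 role groups, by genotype, with 1 point per tumor labelled by its replicate number and the genotype mean ± SD in grey. KO2 is the highest point of every panel except the chemokines, where WT1 stands at 7.99, and KO3 lies near the lower WT and MT tumors.

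KO2 was the highest of the 12 tumors for 26 of the 33 genes (78.8%), against 10.3% of all probe sets. KO3 was the lowest KO tumor for 27 of 33 (81.8%), against 16.5% of all. KO2 exceeded every WT and MT tumor for 30 of the 33 genes, KO1 for 16, KO4 for 9 and KO3 for 1, where 14.8%, 11.2%, 14.9% and 11.1% of all probe sets did so. All 33 genes were lower in KO3 than in KO2, with a median difference of -1.86 and a range from -4.13 for Gbp3 to -0.46 for Irf1, beside a median of -0.01 over all probe sets. Of the 100 probe sets with the lowest values of KO3 minus KO2 among 22626, 21 were members, from 17 genes. This contrast of single arrays has no replicate and no test, and the difference between these tumors was known when the list was taken up.

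**Figure D3:**
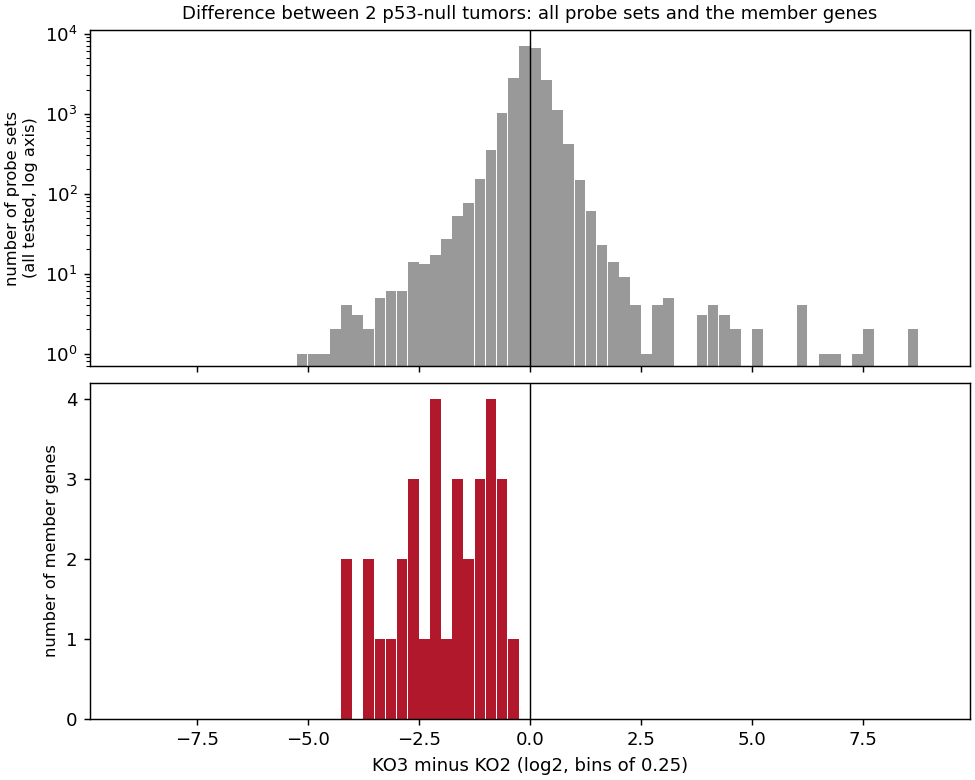
Histograms of KO3 minus KO2, in log2 units and bins of 0.25, for all 22626 probe sets (top, number on a log axis) and for the 33 member genes (bottom, number on a linear axis). All members lie left of 0, between -4.13 and -0.46, while the probe sets as a whole center on -0.01.

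The controls and markers beside this difference were as follows. The poly-A controls averaged 4.11 in KO2 and 4.09 in KO3, and the hybridization controls 9.40 and 9.31. The ribosomal 18S probe sets averaged 7.39 and 7.36, and the actin 3′ signal exceeded the 5′ signal by 0.51 and 0.36. Macrophage markers averaged 8.60 in KO2 and 8.29 in KO3, with 12 of 13 higher in KO2 and a median difference of -0.29. Their range was 8.01 to 8.60 in KO, 8.49 to 8.96 in WT and 7.79 to 8.81 in MT. Within the list Cd14 varied most, from 6.57 in WT1 to 11.87 in KO2, with KO3 at 11.25. T and NK cell markers averaged 5.50 and 5.39, with 10 of 15 higher in KO2 and a median of -0.07, within a range of 5.38 to 5.50 for KO, and Cd3g and Klrd1, which mark T and NK cells, were at 4.38 and 4.42 in KO2 against 7.22 and 6.60 in WT1. B and plasma cell markers averaged 5.66 and 5.51 (5 of 6 higher in KO2). Granulocyte markers averaged 6.23 and 5.85 (6 of 7 higher) with a median difference of -0.1, within which S100a8 was at 7.32 and 5.84. Dendritic cell markers averaged 5.98 and 5.65 (4 of 5), a gap that came mainly from Itgax, at 7.33 and 5.86. For the others KO3 minus KO2 was -0.17 for Cd209a, 0.02 for Ccr7 and -0.0 for Flt3 and Xcr1. Endothelial markers averaged 5.69 and 5.54 (6 of 7), fibroblast markers 8.51 and 8.79 (0 of 7), epithelial markers 9.66 and 9.73 (3 of 8) and salivary secretory genes 8.94 and 9.48 (4 of 9). The part of array quality or of these cells in the difference was not tested.

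**Figure D4:**
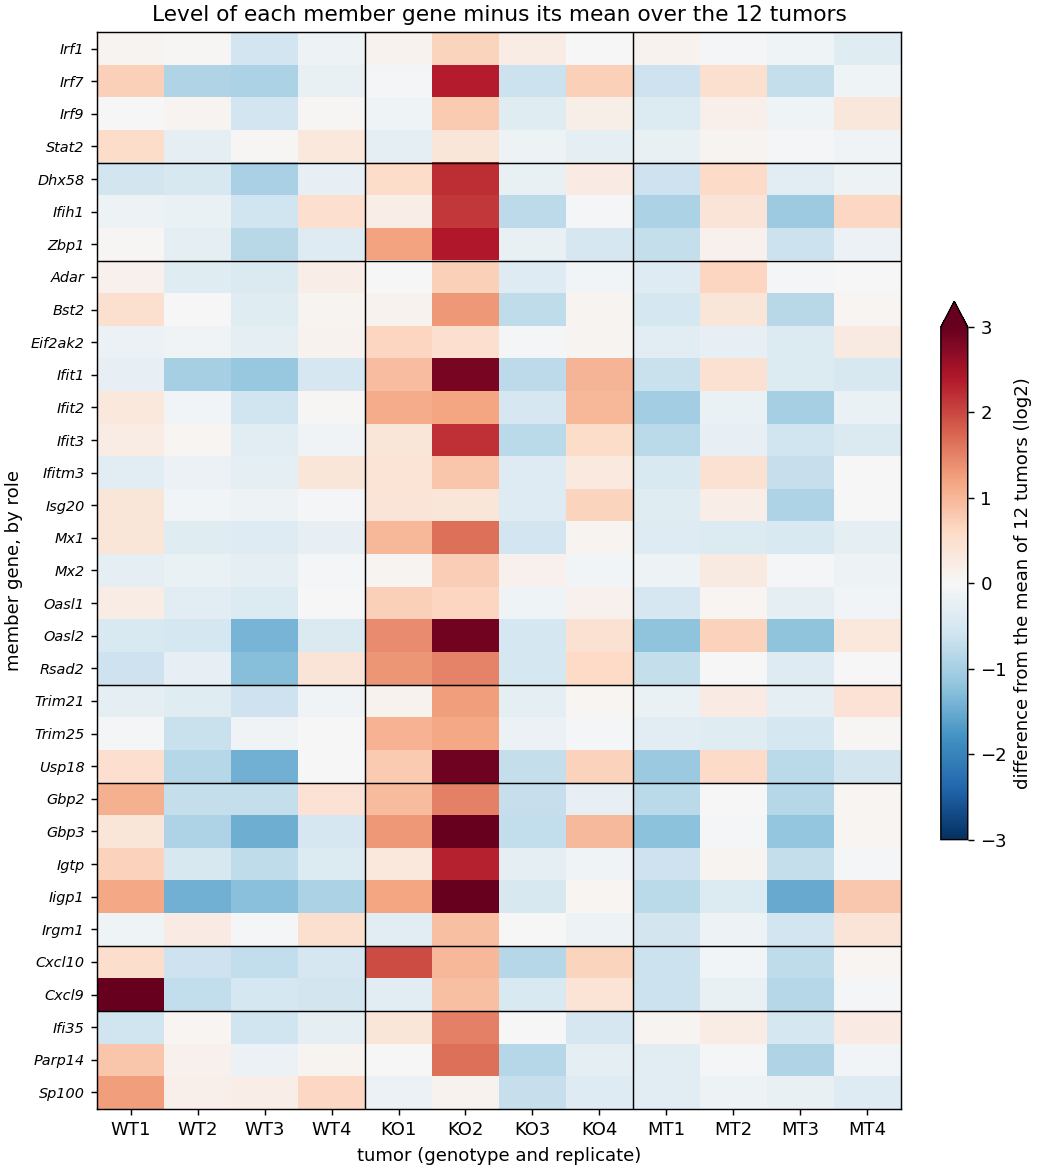
Level of each of the 33 member genes (rows, ordered by role and parted by lines) in each of the 12 tumors (columns), as the difference from that gene's mean over the 12 tumors in log2 units, red for higher and blue for lower. The KO2 column holds only shades of red, the KO3 column is mostly pale blue, and in WT1 Cxcl9 stands out at 8.86 against 4.96 to 6.71 in the other tumors.

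Among the transducers and transcription factors, Irf7, which drives the later wave of type I interferon, varied most. Its level was 6.77, 9.18, 6.19 and 7.55 in KO1 to KO4, 7.54, 5.92, 5.89 and 6.60 in WT1 to WT4, and 6.20, 7.32, 6.11 and 6.69 in MT1 to MT4. KO2 was the highest, KO3 lay among the lower tumors, and the genotypes overlapped, with a difference of -0.94 ± 0.59 (SE) for WT against KO (adjusted p = 0.359, limma). Irf1, an early response factor whose upstream stretch holds the gamma-activated site shown earlier, differed least of all members between KO3 and KO2, by -0.46, and ran from 8.39 to 9.64 over the 12 tumors with KO2 again highest. Irf9, the DNA-binding partner of Stat2, was at 8.77 in KO2 and 7.41 to 8.34 in the others. Stat2 had its highest level in WT1, at 6.81, by 1 probe set and in KO2, also at 6.81, by the other, and its differences between WT and KO were 0.26 and -0.21, so that the probe sets disagreed in direction.

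The ligands, receptors and kinases were not members. Of 10 interferon ligand genes measured of 21 listed, 0 were called in any comparison, KO3 minus KO2 ran from -0.22 to 0.19, and their mean level was between 5.13 and 5.48 in all 12 tumors. Ifnb1, the gene of interferon beta, was at 6.12 in KO2 and 6.13 in KO3. Ifng, that of interferon gamma, was at 4.17 and 4.14, and ran from 4.05 to 4.44 over the 12 tumors. Whether the ligand transcripts were detected was not tested, so flat values do not show that interferon production was alike. Of 5 receptor genes 0 were called, and 4 were lower in KO3 than in KO2, with a median of -0.32. Ifnar1 and Ifnar2, the chains of the type I receptor, were lower by 0.11 and 0.60, and for Ifngr2, a chain of the interferon gamma receptor, KO3 minus KO2 was -0.91. Of 4 kinases and STATs 0 were called, and 3 were lower in KO3, with a median of -0.25. Jak1, a kinase that both receptor types use, was at 10.92 in KO2 and 9.74 in KO3, below all other tumors, while Tyk2, the other kinase of the type I receptor, was at 7.80 and 7.83. Stat3, a transcription factor of the interleukin 6 family, was highest in KO2 at 11.57, with KO3 at 11.14. Of 8 sensors and adaptors measured, 2 passed the test and were lower in WT than in KO. These 2 were the only calls among the 75 pathway genes measured outside the members, where 4.57% of all probe sets passed for WT against KO. Myd88, the adaptor of most Toll-like receptors, fell by 0.68 on the log2 scale in WT (adjusted p = 0.0196, limma), with levels of 7.38 to 7.78 in WT and 8.26 to 8.39 in KO, and Tlr3, a receptor for viral RNA, fell by 1.09 (adjusted p = 0.0484, limma), from 8.16 to 8.88 in KO to 6.72 to 7.98 in WT. Myd88 was at 8.39 in KO3 and 8.28 in KO2.

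The sensors of nucleic acid included Dhx58, which with Sp100 was 1 of the 2 members whose WT and KO values did not overlap. Dhx58, which modulates the RNA sensors of its family, was at 5.57, 5.63, 5.14 and 5.88 in WT1 to WT4 and at 6.68, 8.33, 5.89 and 6.36 in KO1 to KO4. Every KO tumor was thus above every WT tumor, though KO3 exceeded WT4 by little. MT1 to MT4 were at 5.50, 6.69, 5.80 and 5.96, across the gap. The difference of WT from KO was -1.26 ± 0.45 (SE), with an adjusted p of 0.119 by limma, and without KO2 it was -0.75. The other Dhx58 probe sets read lower levels and overlapped between the genotypes, with differences of -0.10 and -0.30. Ifih1, a sensor of long viral RNA, had the lowest KO3 minus KO2 of this group, -2.89, at 7.66, 9.57, 6.68 and 7.41 in KO1 to KO4. WT1 to WT4 were at 7.31, 7.26, 6.87 and 7.96 and MT1 to MT4 at 6.50, 7.84, 6.38 and 8.08, so that KO3 lay near the lowest tumors of both other genotypes. Zbp1, a sensor of left-handed nucleic acid that can start cell death, was at 9.19 in KO2 and 7.99 in KO1, and at 5.96 to 6.93 in the other 10 tumors.

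The antiviral effectors were the largest group, with 13 measured genes. Ifit1, which binds viral RNA without the host's cap marks, was at 6.51, 8.44, 4.81 and 6.62 in KO1 to KO4. Its levels were 5.34, 4.59, 4.46 and 5.10 in WT1 to WT4 and 4.92, 6.04, 5.19 and 5.11 in MT1 to MT4. KO1, KO2 and KO4 were above all WT and MT tumors, and KO3 lay among them. The difference of WT from KO was -1.72 ± 0.59 (SE), with an adjusted p of 0.108 by limma, and it was -2.32 with an adjusted p of 0.0403 without KO3 and -1.11 with an adjusted p of 0.181 without KO2. The upstream stretch of Ifit1 printed earlier holds 2 copies of the core, as does that of Ifit3, a partner of Ifit1, which was at 9.88 in KO2 and 6.88 in KO3.

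Oasl2, a relative of the enzymes that activate RNase L, had the largest difference between WT and KO in this group, -1.77 ± 0.67 (SE, adjusted p = 0.138, limma). It was at 8.02, 9.50, 6.06 and 7.05 in KO1 to KO4, at 6.14, 6.06, 5.21 and 6.16 in WT1 to WT4, and at 5.40, 7.28, 5.38 and 6.92 in MT1 to MT4. KO3 was at the level of the WT tumors, and MT2 exceeded KO4. Rsad2, which makes a chain-ending nucleotide, differed by -1.15 in WT and -1.0 in MT, and of its other probe sets 1 gave -1.36 and 1 gave -0.02 for WT. Ifit2, another member of the Ifit1 family, was at 6.97, 7.04, 5.35 and 6.84 in KO1 to KO4, at 6.17, 5.77, 5.25 and 5.88 in WT1 to WT4 and at 4.81, 5.66, 4.86 and 5.66 in MT1 to MT4. KO3 was the exception among the KO tumors here, which otherwise lay above all 8 others, and the difference of MT from KO was -1.30 ± 0.37 (SE), the smallest unadjusted p of the members in that comparison (0.00481, adjusted p = 0.307, limma), or -0.89 with the poly-A level as a block.

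The other effectors were as follows. Mx1, a GTPase, was at 7.27 in KO2 and 6.62 in KO1, and at 5.05 to 5.99 in the other 10 tumors. Mx2, its relative, ranged from 5.87 to 6.92, with a difference of -0.43 in WT. Eif2ak2, the kinase that halts translation on sensing viral RNA, was highest in KO1 at 7.57, with KO2 at 7.42, while its other probe set was highest in KO2 at 7.28, with KO1 at 6.86. Oasl1, of the same family as Oasl2, was at 7.13 in KO1 and 7.05 in KO2, and Isg20, an RNA-degrading enzyme, at 7.35 in KO4 and 7.04 in KO2, so that KO2 was not the highest tumor for these 2 genes. Adar, which edits adenosine in RNA, was at 7.88 in KO2 and 7.80 in MT2, with the other tumors between 6.72 and 7.36. Bst2, which tethers budding virus, and Ifitm3, which blocks viral entry, were lower in KO3 than in KO2 by 2.05 and 1.22, and lower in WT than in KO by 0.14 and 0.39, neither passing the test.

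In the ISG15 and ubiquitin system, Usp18, which removes ISG15 from proteins and dampens the type I receptor, followed the same order. It was at 7.08, 9.22, 5.57 and 6.98 in KO1 to KO4, at 6.8, 5.44, 4.84 and 6.31 in WT1 to WT4 and at 5.18, 6.86, 5.49 and 5.74 in MT1 to MT4. KO1, KO2 and KO4 were above all other tumors, KO4 by little, and the difference of WT from KO was -1.36 ± 0.69 (SE, adjusted p = 0.254, limma). Trim25, a ubiquitin ligase of RNA sensing, set KO1 and KO2 apart at 10.27 and 10.37, while KO3, at 9.05, and KO4, at 9.17, were at the level of the WT tumors, 8.55 to 9.23. Its 3 probe sets gave differences between WT and KO of -0.70, -0.79 and -0.16. Trim21, an antibody receptor inside cells, was at 8.76 in KO2 and 6.90 to 7.95 elsewhere. Isg15 was read only by a probe set that the annotation also gives to Gm9706, so it was not counted as a member, and that probe set was at 8.08, 9.26, 6.45 and 7.32 in KO1 to KO4 and at 6.01 to 7.10 in the WT and MT tumors.

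The GTPases that interferon gamma strongly induces showed the widest range. Gbp3, a guanylate-binding protein, was at 8.16, 10.24, 6.11 and 7.83 in KO1 to KO4, at 7.23, 5.94, 5.39 and 6.35 in WT1 to WT4 and at 5.64, 6.8, 5.71 and 6.92 in MT1 to MT4. KO1, KO2 and KO4 were above all other tumors and KO3 was not. The differences were -1.86 ± 0.72 (SE) for WT against KO and -1.82 ± 0.72 for MT against KO, with adjusted p of 0.147 and 0.453 by limma. Without KO2 they were -1.14 and -1.10, and with the poly-A level as a block the second was -1.16. Iigp1, an immunity-related GTPase, was at 10.09 in KO2, 7.68 in KO1, 7.66 in WT1 and 7.29 in MT4, and at 4.98 to 6.56 in the other 8. Igtp was at 10.16 in KO2 and 8.52 in WT1, with the others between 7.09 and 8.15, and Gbp2 at 7.73 in KO2, 7.27 in WT1 and 7.16 in KO1, with the others between 5.36 and 6.65. Irgm1, a regulator of this family, moved least, from 10.21 to 11.68, with a difference of 0.04 between WT and KO. These families hold near-identical genes, so a probe set may read more than the gene it is named for.

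**Figure D5:**
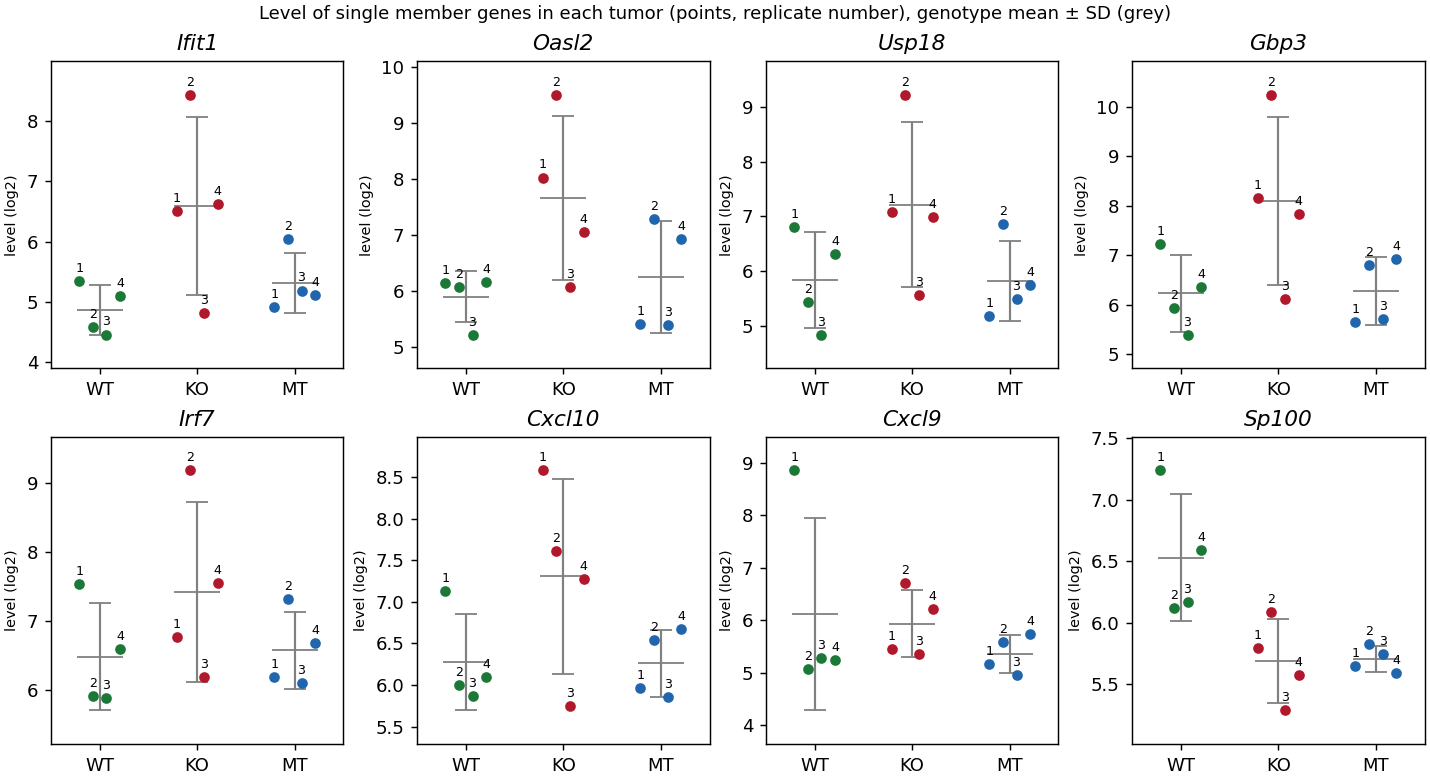
Log2 level of 8 member genes in each tumor (points, labelled by replicate number) by genotype, with the genotype mean ± SD in grey. For Ifit1, Oasl2, Usp18, Gbp3 and Irf7 the highest point is KO2, for Cxcl10 it is KO1 at 8.58, for Cxcl9 and Sp100 it is WT1 at 8.86 and 7.24.

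The chemokines departed from this order. Cxcl10, which attracts activated T cells, was at 8.58, 7.61, 5.75 and 7.28 in KO1 to KO4, at 7.13, 6.0, 5.87 and 6.10 in WT1 to WT4 and at 5.97, 6.54, 5.86 and 6.67 in MT1 to MT4. KO1 rather than KO2 was the highest, and KO3 the lowest of all 12, with a difference of -1.03 ± 0.50 (SE) between WT and KO (adjusted p = 0.237, limma). Cxcl9, a chemokine for the same receptor that depends more on interferon gamma, was at 8.86, 5.07, 5.29 and 5.25 in WT1 to WT4, at 5.46, 6.71, 5.36 and 6.22 in KO1 to KO4 and at 5.17, 5.59, 4.96 and 5.74 in MT1 to MT4. WT1 exceeded the mean of the other WT tumors by 3.66 for Cxcl9, 2.39 for Iigp1, 1.40 for Irf7, 1.38 for Gbp2 and 1.34 for Gbp3. The excess was 1.27 for Usp18, 1.22 for Igtp, 0.62 for Ifit1 and 0.02 for Dhx58. For Irgm1, a GTPase of the same role group as Iigp1, Gbp2, Gbp3 and Igtp, the difference was -0.35. The median was 0.48 over the 33 genes and -0.02 over all probe sets. WT1 is also the tumor with the lymphocyte markers given earlier, whose part in these levels was not tested. Without WT1 the score difference between WT and KO was -0.79, where it was -0.64 with it.

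Of the remaining genes, Sp100, a component of nuclear bodies, ran against the others. It was at 7.24, 6.12, 6.17 and 6.59 in WT1 to WT4, at 5.80, 6.09, 5.29 and 5.58 in KO1 to KO4 and at 5.65, 5.83, 5.75 and 5.59 in MT1 to MT4. Every WT tumor was above every KO and MT tumor, though WT2 and KO2 were only 0.03 apart. The difference of WT from KO was 0.84 ± 0.24 (SE, adjusted p = 0.0684, limma) and that of MT from WT -0.82 ± 0.24 (adjusted p = 0.120, limma). Without WT1 these were 0.60 and -0.59, and with each array centered on its median the first was 0.89 with an adjusted p of 0.0497. Within KO, Sp100 was lower in KO3 than in KO2 by 0.80, as were all other members. Parp14, which attaches ADP-ribose to proteins, was at 6.98, 8.64, 6.13 and 6.69 in KO1 to KO4, at 7.81, 7.12, 6.82 and 7.07 in WT1 to WT4 and at 6.68, 6.94, 6.08 and 6.91 in MT1 to MT4. Only KO2 and, by less, WT1 stood out, and the difference between WT and KO was 0.10 ± 0.45 (SE). Ifi35, an interferon-induced leucine zipper protein, was at 10.23 in KO2 and 8.10 to 9.08 elsewhere.

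The genes with and without the core of the response element upstream overlapped in how far KO3 lay below KO2. The 14 measured members with a match had a median of -2.03, from -4.13 to -0.53, and the 12 with a window but no match a median of -1.23, from -3.44 to -0.46. Gbp3 and Ifit1 were at the far end of the first, Stat2 and Eif2ak2 at its near end, and Oasl2 and Irf7 at the far end of the second. These shares rest on the letters of 300 bases and were not tested.

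Interferon-induced genes outside the members were listed with the results of these tumors known, so their counts are no separate support. Of 50 such genes 36 were measured, and 0 were called in any comparison. All 36 were lower in KO3 than in KO2, with a median of -1.50, where 51.3% of all probe sets were lower. KO2 was the highest of the 12 tumors for 22 of them and WT1 for 8, against 10.3% and 10.7% of all probe sets. Oas1a, which makes the activator of RNase L, was at 10.62 in KO2 and 6.99 to 8.40 elsewhere, and Oas2 and Oas3 of the same family were at 8.89 and 7.87 in KO2 and at 6.02 to 6.49 and 5.37 to 5.94 elsewhere. Of 7 inhibitors of the pathway 0 were called, and 6 were lower in KO3 than in KO2, with a median of -0.12. Of the feedback inhibitors of the JAK kinases, Socs1 ranged from 5.41 to 5.80 and Socs3 from 6.85 to 9.06, with a difference of WT from KO of -1.01 for Socs3 (adjusted p = 0.147, limma). For Ptpn2, a phosphatase of the pathway, it was -1.07 (adjusted p = 0.175, limma). Among genes that were no members and were read by a probe set with a single symbol, the lowest values of KO3 minus KO2 were -4.62 for Clca3a2, -4.37 for Bpifb5 and -4.14 for Pigr, the carrier of antibodies across epithelium, followed by Rtp4 and Gbp6 of the list of 50 at -3.46 and -3.38. The highest were 8.63 for Prol1, 8.60 for Mucl2, 7.57 for Crisp3, 7.54 for Klk1 and 6.54 for Klk1b16, all secretory products of salivary glands.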

How the data were processed

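Log2 values of 12 tumors were taken from the value table the authors deposited, 1 array per tumor. Per the study's methods, these were made by RMA (background correction, quantile normalization and summary of probes to probe sets). The submitters' processing notes name RMA and MAS5, without saying which made the table, and versions are not given there. Groups were taken from the sample titles. No normalization was added. Of 22690 probe sets 64 controls were left out, and 20380 of the other 22626 had a single gene symbol, 691 several and 1555 none here. Genotype means were fitted with limma 3.58.1 in R 4.3.3 (lmFit, eBayes) over all 12 tumors without covariates, tested 2-sided with Benjamini-Hochberg adjustment over 22626 probe sets at 0.05, after the script was tested on simulated data. The study's methods name SAM, which was not run here. For scores each gene was read by its probe set of highest mean level. Tables and figures were made with Python 3.11.15. Promoter sequences came from RefSeq (GRCm38.p6).

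Values per tumor were given for members called or not overlapping in a comparison and for the member of each role group with the lowest KO3 minus KO2. Oasl2, Ifit2 and Cxcl9, and single values of other members, were added after their values were seen. Members and lists were chosen with earlier results of these data known. Alternatives were filters, scalings, blocks, array weights and leaving out each tumor. The number of arrays limits the precision.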

Additional observations from a re-analysis of the deposited data

Results flagged for a closer look

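In 123 groups of 4 tumors (33 genes and 8 scores in 3 genotypes), 6 held a tumor whose gap to the nearest of the others took up most of the range of its group, where chance gives about 1 in 20, or 6.2. Cxcl9 was at 8.86 in WT1, where the other WT tumors were between 5.07 and 5.29, and the score of the chemokines was therefore 7.99 in WT1 and 5.53 to 5.67 in the others. Ifit2 was at 5.35 in KO3, where the other KO tumors were between 6.84 and 7.04. Oasl2 was at 5.21 in WT3 (others 6.06 to 6.16), and Irf9 at 7.41 in WT3 (others 7.99 to 8.08). Trim25 was at 8.55 in WT2 (others 9.12 to 9.23). None of the 6 was KO2, whose level was mostly parted from KO3 by the levels of KO1 and KO4 in between.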

How the results depend on the processing

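No member was called in any comparison by limma, and this held for the dim filter, cyclic loess, the fit to the 8 tumors compared, trend and robust moderation, the poly-A block and 1 probe set per gene. With arrays centered on their median, 1 of 45 was called between WT and KO (Sp100), beside 1242 of all 22626 probe sets. With array weights, 5 were called between WT and KO (Mx2, Dhx58, Eif2ak2, Irf1, Sp100) and 2 between MT and WT (Trim21, Sp100). Calls over all probe sets then went from 1035 to 3280 and from 83 to 4973. Dhx58 and Eif2ak2 were called there by probe sets not used for scores. The Dhx58 probe set used for scores had an adjusted p of 0.0642 by limma with array weights. Leaving out 1 tumor gave 0 to 2 calls between WT and KO and 0 to 0 in the other comparisons. The 2 calls came without KO3 (Ifit1, Rsad2), beside 401 of all probe sets, where all calls ran from 196 to 1360. Rsad2 was called by a probe set not used for scores, and the one used for scores had an adjusted p of 0.0575 by limma. Lower members at an unadjusted p under 0.05, 10 for WT and 9 for MT against KO, went to 2 to 24 and 1 to 22 on leaving out 1 tumor. They were 2 and 1 without KO2, 24 and 22 without KO3, and 6 and 1 without KO1. Without WT3 the first was 3, and without MT1 or MT3 the second was 2 or 1. The shares over all probe sets beside these counts are given with the results. The score differences, -0.64 and -0.72 against KO, ran from -0.93 to -0.28 and from -1.01 to -0.36 on leaving out 1 tumor, the end nearer 0 without KO2, and that of MT from WT, -0.08, from -0.22 to 0.07. Under the other settings these ran from -0.79 to -0.59, from -0.88 to -0.63 and from -0.14 to -0.03, and KO3 minus KO2 from -2.48 to -1.85. Genes lower in MT than in WT, 19, were 10 with the poly-A block and 13 to 26 on leaving out 1 tumor. These counts of directions and of unadjusted p were recomputed under alternatives chosen after the data were seen. The cause of these shifts was not tested.

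The labels do not say that a replicate number marks a shared litter or batch. Deviations of same-numbered tumors correlated at 0.00226 to 0.129 between WT and KO and 0.0247 to 0.335 between MT and KO. Between MT and WT they correlated at 0.0479 to 0.125. Of 4 KO tumors 3 correlated best with their own number in WT and 3 in MT. In the other direction 2 of 4 WT and 2 of 4 MT tumors did so with KO. Between MT and WT it was 2 of 4 MT and 1 of 4 WT tumors. These counts did not meet the criterion set for treating the tumors as paired. The tumor numbered 3 had the lowest score of each genotype. A fit with the number as a replicate block called 0 members in every comparison and 1019 of all probe sets between WT and KO.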

Other observations

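Several genes of peptide loading on MHC class I molecules, which interferons also induce, had their lowest levels in KO3 and MT3, while Tapbp and Psmb10 did not. These genes were picked out after their values were seen, and the pattern was not tested. B2m, the light chain of the class I molecule, was at 10.56 in KO3 and 10.36 in MT3 and at 11.73 to 13.10 in the other 10 tumors. Psmb8, a subunit of the immunoproteasome, was at 7.11 and 6.62 there and at 7.92 to 9.51 elsewhere, and Psmb9, of the same complex, at 6.04 and 5.82 and at 6.98 to 9.05 elsewhere. Tap1, the peptide transporter, was at 5.95 and 6.06 and at 6.73 to 8.70 elsewhere, while its partner Tap2 was at 6.71 and 6.73, below the other tumors at 6.93 to 8.34. Tapbp, which bridges the transporter to class I molecules, was at 9.47 and 9.25, within the range of the others, and Psmb10, a further immunoproteasome subunit, at 7.81 and 8.05, with the others between 7.77 and 8.91. In the score of the interferon response genes, MT3 was at 6.59 and KO3 at 6.77, while WT3, at 6.59, had B2m at 12.71.

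Jak2, a kinase of the interferon gamma receptor among others, was at 10.52 in KO1 and 7.84 to 9.23 in the other tumors, and Irf2, a repressor of interferon-induced genes, at 8.24 in KO4 and 5.47 to 6.67 elsewhere. These are single tumors and carry no test.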
